A study of Sus scrofa with 24 samples.

Results

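The data describe the difference between 2 littermate piglets of unequal birth size, in hippocampal RNA taken at 14 days of age. One piglet of each pair was small for gestational age (SGA) and the other was appropriate for gestational age (AGA). Pairs were taken from the sample labels, which give every library a litter, and all 24 of the 24 libraries in the series entered, as 12 pairs. The litter was the unit of every comparison, so n = 12 unless another number is given, and the members of the comparison are the 12 differences of SGA minus AGA.

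All piglets were crosses of a PIC Camborough dam with a PIC 359 sire, and both piglets of a pair had the same sex and drank the same formula. Either size on either formula made 4 groups of 6 piglets each, AGA CON, SGA CON, AGA HF and SGA HF. CON was a control formula whose fat was triglyceride oil, and HF was a formula with hydrolyzed fat, in which part of the fat was given as free fatty acids, monoacylglycerol and lecithin. Of the 12 litters, 6 were male and 6 female, 6 were fed CON and 6 HF, and 6 came in each of 2 cohorts. Litters 1 to 6 formed cohort 1. The labels do not state whether different litters shared a sow, and birth size was observed and not assigned, so what else differed between littermates cannot be told apart from size.

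The hippocampus holds the dentate gyrus, whose granule neurons receive cortical input, and the pyramidal fields that pass it on. Around birth in the pig, oligodendrocyte progenitors mature and wrap axons in myelin, a membrane rich in cholesterol and galactolipid and held together by a small set of proteins such as myelin basic protein. Growth before birth that falls short of its potential is known to affect the brain, and white matter is among the tissues studied for it.

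Each library held 6017336 to 9284355 reads on listed genes. A floor of 3 counts, used only in reading single values, corresponds to 0.323 to 0.499 CPM (counts scaled to one common library size). Counts below it still entered the fits, which kept genes that reached 1 CPM in 3 or more libraries. These floors cover counting error only. The SGA library was the deeper one in 8 of 12 litters, by a mean of 0.11 on the log2 scale (SD 0.19, two-sided exact sign-flip permutation test over litters, p = 0.0591). On plain library totals, markers of the hippocampus were present in all 24 libraries, with PROX1 of granule neurons at 35.2 to 65.8 CPM and FIBCD1, a marker of the CA1 pyramidal field, at 47.9 to 213 CPM. ZBTB20, another gene of hippocampal neurons, was at 0 in 18 libraries. Markers of neighbouring tissue varied between libraries, with the choroid plexus gene TTR at 1.61 to 147 CPM and the pituitary gene GH1 at 0 to 301 CPM. Some libraries stood apart. The AGA library of litter 4 stood apart at the low end of its group for 3 of the genes named here, and the SGA library of litter 12 at the high end of its group for 3 others. In litters 3, 4 and 12 the differences between littermates spread the most over genes, with SDs of 0.411, 0.409 and 0.435 on the log2 scale against 0.273 to 0.385 in the other 9 litters.

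A total of 161 of 16326 genes tested differed between littermates at a false discovery rate (FDR) p under 0.1, in a fit of edgeR's quasi-likelihood test with litter as a block. Adjusted p values below are these FDR p values. This is 0.986% of the genes. SGA piglets had higher expression of 55 genes (0.337%) and lower expression of 106 genes (0.649%). At an FDR p under 0.05 there were 59 genes, 0.361% of those tested, of which 18 were higher and 41 lower, and 2039 genes had an unadjusted p under 0.05. The differences were small. Among the 161 genes the log2 fold change had a median size of 0.309 and ranged in size from 0.185 to 0.831, while the median over all genes tested was 0.003. No gene separated the 12 SGA libraries from the 12 AGA libraries without overlap. Without the litter block 27 genes were called higher and 59 lower, of which 23 and 56 were among the 161. The SGA littermate was the higher one in all 12 litters for 28 of the genes tested (0.172%), and the lower one in all 12 for 49 genes (0.300%).

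How far a difference could be seen depended on how strongly a gene was expressed. Of the 2203 genes with a mean of at least 100 CPM, 2.77% were called, and of the 5373 genes under 5 CPM, 0.0931% were called. The median standard error (SE) of a log2 fold change fell from 0.245 in the weakest band to 0.058 in the strongest. The plot of fold change against expression shows this as a funnel, within which the myelin genes lie low at nearly every level.

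**Figure D1:**
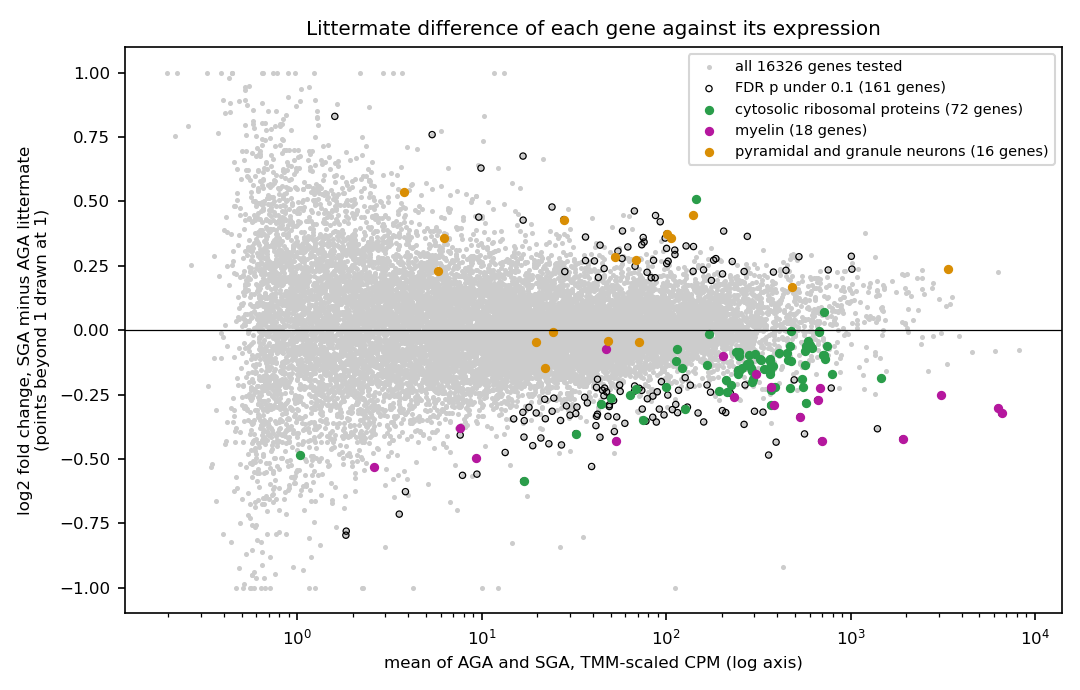
Log2 fold change of SGA minus AGA littermates (vertical axis) against the mean expression of each gene in TMM-scaled CPM (horizontal log axis), with 1 point for each of 16326 genes. Circles mark the 161 genes with an FDR p under 0.1, and filled colors mark genes of the myelin, cytosolic ribosomal protein and pyramidal and granule neuron lists. The 18 myelin genes all lie below 0, and 70 of the 72 ribosomal protein genes do.

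The calls leaned on single litters to different degrees. When each litter was left out in turn and the fit repeated, 42 of the 161 genes were called in all 12 of these fits, 12 of them higher and 30 lower in SGA, and the sign changed for 0 genes. Among genes named below, CACNA1G, IQSEC2, NKX6-2 and PDXP were called in 5 of the 12 fits. INSIG1 and PLLP were called in 4, MOBP and SCN3B in 3, and LENG8 in 2. Without litter 7 only 13 genes were called higher, and without litter 4 or litter 10 only 37 were called lower. With litters 3, 4 and 12 all left out, 1 gene was called higher and 2 lower.

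Among the gene lists, the one of myelin held the largest share of called genes. Of 20 genes on a list of myelin proteins and enzymes 18 were matched to a single gene and tested, and all 18 had a log2 fold change below 0, with a median of -0.30. In the model of the study with 5 surrogate variables and no litter block, refitted here in edgeR, that median was -0.18. With the litter block, 7 of the 18 genes were called lower (38.9% of the list) and 0 higher. An unadjusted p under 0.05 was reached by 14 of the 18 in edgeR's test. Over all genes tested, 0.986% were called and 12.5% had such a p. These are the shares to set beside the counts of every list below. Among genes with a mean of at least 100 CPM, 2.77% were called. CNP, a phosphodiesterase of the cytoplasmic channels of myelin (gene 100511587, chromosome 12 of Sscrofa10.2 from 21048293 to 21055830), was at 1507 to 2851 CPM in AGA piglets (median 2201) and at 1239 to 2434 CPM in SGA piglets (median 1434). The SGA piglet was the lower one in all 12 litters, and the groups overlap widely. The log2 fold change of CNP was -0.42 (SE 0.062, adjusted p = 0.0111), and it stayed between -0.45 and -0.38 when any litter was left out.

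MBP, which encodes myelin basic protein, was among the most abundant genes in the tissue. It was at 4424 to 10193 CPM in AGA piglets (median 7386) and at 3758 to 8590 CPM in SGA piglets (median 5903), with the SGA piglet lower in 11 of 12 litters. Litter 1 was the exception, at 4424 CPM in its AGA piglet and 5351 CPM in its SGA piglet. The log2 fold change was -0.32 (SE 0.076, adjusted p = 0.0725), and 4 of the 12 fits without 1 litter called it. In the model of the study it was -0.10 and lost the call. MOBP, another structural protein of compact myelin, had medians of 6889 CPM in AGA and 5489 CPM in SGA piglets and a log2 fold change of -0.30 (adjusted p = 0.0925).

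UGT8, the enzyme that makes the galactolipid of myelin, was at 451 to 762 CPM in AGA piglets (median 607) and at 346 to 589 CPM in SGA piglets (median 465). It was lower in 10 of 12 SGA littermates (log2 fold change -0.34, SE 0.069, adjusted p = 0.0418). OPALIN, a membrane protein of maturing oligodendrocytes, was at 534 to 1018 CPM in AGA piglets (median 862) and at 434 to 911 CPM in SGA piglets (median 582). Its log2 fold change was -0.43 (SE 0.090, adjusted p = 0.0468), and the SGA littermate was higher in 2 litters. MAL and PLLP, which encode proteolipids of the myelin membrane, had log2 fold changes of -0.43 and -0.27 (adjusted p = 0.0476 and 0.0706), each lower in 11 of 12 litters.

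TF, the iron carrier transferrin, is also on the list but was left out of its counts, since 2 gene entries share the symbol. The entry TF_396996 was called lower, in 11 of 12 litters (log2 fold change -0.49, SE 0.097, adjusted p = 0.0391), and TF_396845 had -0.49 (SE 0.298, adjusted p = 0.541). With both included, 8 of 20 entries were called and the median was -0.31. The other 11 of the 18 myelin genes did not pass the threshold. MAG, which faces the axon, had a log2 fold change of -0.23 (adjusted p = 0.222). MYRF and GAL3ST1, a transcription factor and a sulfotransferase, were nearest to 0 at -0.10 and -0.07. The list median was below 0 in 10 of 12 litters, from -0.67 in litter 3 to -0.14 in litter 6, and above 0 in litters 1 (0.19) and 9 (0.08). It was -0.19 in male and -0.43 in female litters, and -0.39 in CON and -0.22 in HF litters. Without litters 3, 4 and 12 the list median was -0.22. No myelin gene passed the test of size by sex or of size by diet. In simulated data the test by sex recovered 1.49% of 1.25-fold differences, so small differences could not be seen.

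**Figure D2:**
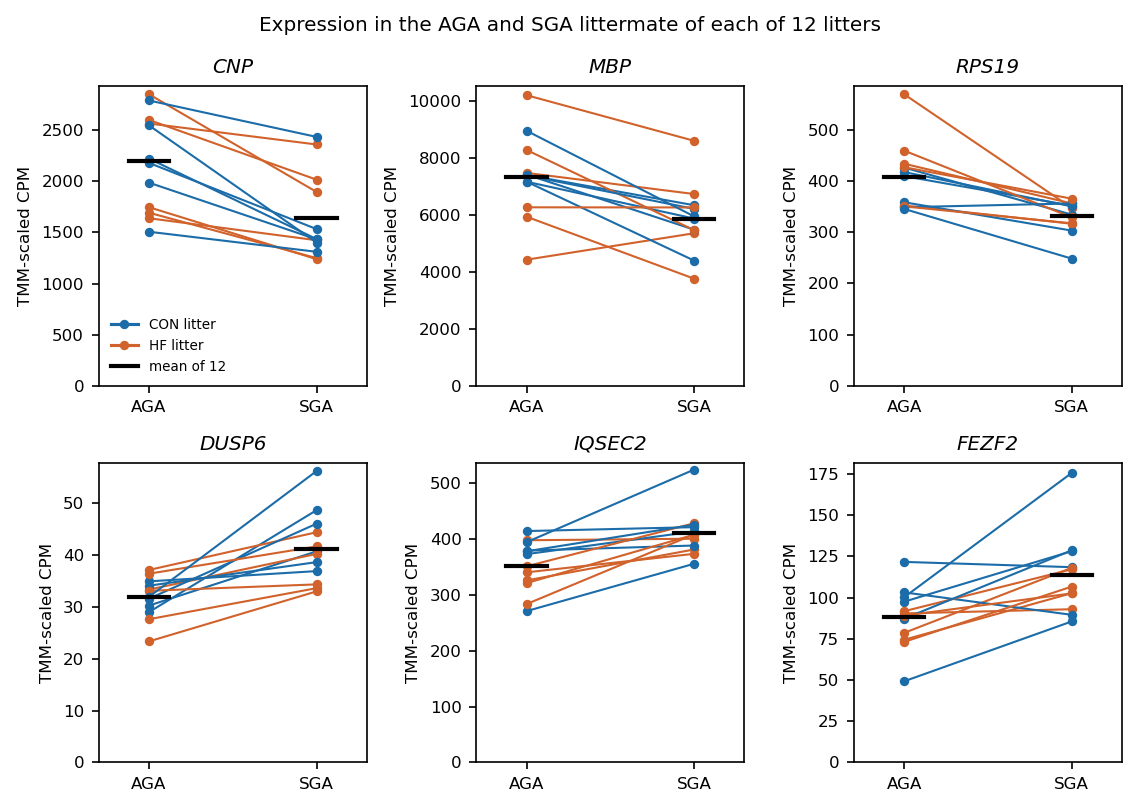
TMM-scaled CPM (vertical axes, from 0) of 6 genes in the AGA and SGA piglet of each litter, with 1 line a litter colored by diet and a black bar for the mean of 12. CNP fell in all 12 litters and MBP and RPS19 in 11, whereas DUSP6 and IQSEC2 rose in all 12 and FEZF2 in 10, and the 2 groups overlap for every gene.

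Genes of earlier oligodendrocytes had values nearer to 0. Among 15 tested genes of oligodendrocyte progenitors and the lineage the median log2 fold change was -0.11, with 11 below 0, 1 called lower (6.67%) and 0 higher. In the model of the study that median was -0.02. The called gene was NKX6-2, a transcription factor of maturing oligodendrocytes, which was at 16.4 to 37.5 CPM in AGA piglets (median 25.4) and at 9.71 to 31.6 CPM in SGA piglets (median 18.7). It was lower in 11 of 12 SGA littermates (log2 fold change -0.44, SE 0.103, adjusted p = 0.0725). PDGFRA, the receptor that defines progenitors, had a log2 fold change of -0.01 (SE 0.064), and OLIG2, a transcription factor of the whole lineage, had 0.02 (SE 0.073). OLIG1 was lower in all 12 litters, but its log2 fold change of -0.17 (adjusted p = 0.133) did not pass. In bulk tissue, fewer cells of a type and less RNA per cell cannot be told apart.

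Some called genes outside that list are also known from oligodendrocytes. These genes were picked out after their values were seen, so they are named as a description and do not add to the count of the list. APOD, a lipid-carrying lipocalin (gene 100157318, chromosome 13 from 142076180 to 142096088), was at 289 to 573 CPM in AGA piglets (median 457) and at 215 to 476 CPM in SGA piglets (median 321). It was lower in all 12 SGA littermates, with a log2 fold change of -0.43 (SE 0.064, adjusted p = 0.0111). ENPP2, which makes lysophosphatidic acid, was lower in 11 litters, with medians of 311 and 216 CPM and a log2 fold change of -0.37 (adjusted p = 0.0361). CERS2, the synthase of very long chain ceramides, had a log2 fold change of -0.32 (adjusted p = 0.0492), and CD9, a tetraspanin, had -0.45 (adjusted p = 0.0706). ANLN and the septins SEPT4 and SEPT7, which form filaments along the myelin sheath, had log2 fold changes of -0.34, -0.22 and -0.21 (adjusted p = 0.0981, 0.0514 and 0.0983). Of the 12 fits without 1 litter, CD9 was called in 5, SEPT7 in 3 and ANLN in 2. ANLN entered through a list of DNA replication and mitosis genes, since it also acts in cell division. It was the only 1 of 34 genes on that list to pass, and the list had a median of -0.09.

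**Figure D3:**
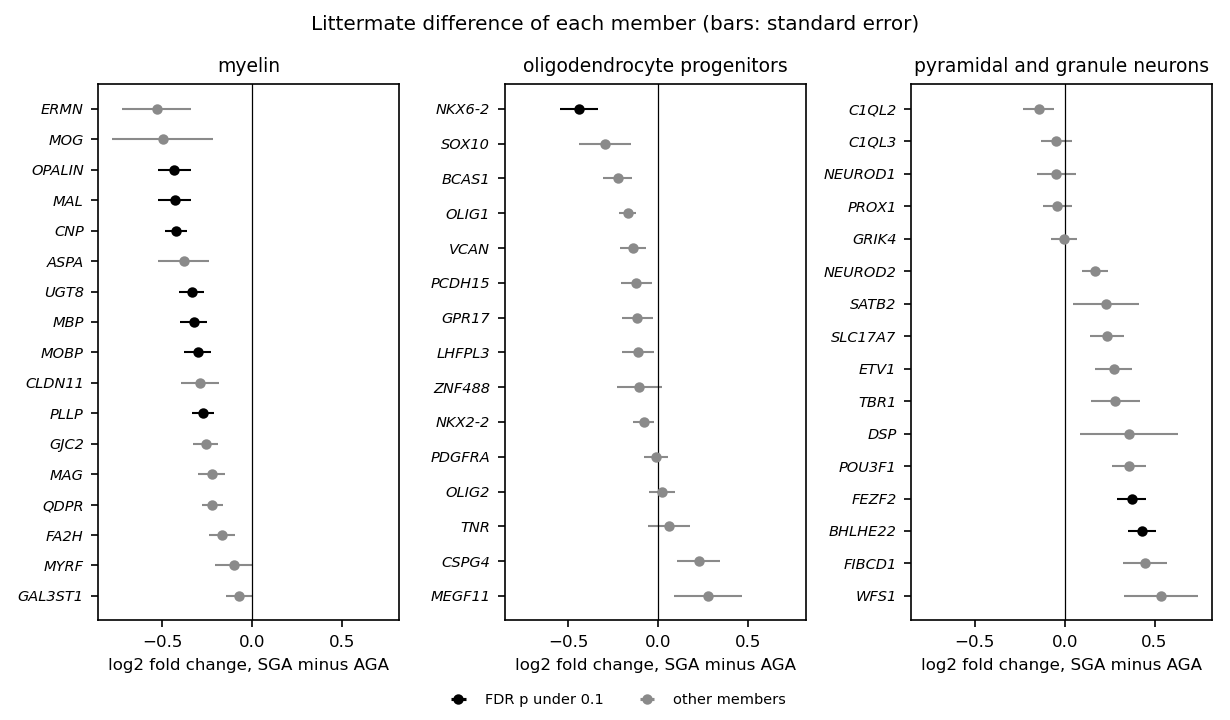
Log2 fold change of SGA minus AGA littermates (horizontal axes) with its SE (bars) for genes of the myelin, oligodendrocyte progenitor and pyramidal and granule neuron lists. Black points passed an FDR p of 0.1 (7, 1 and 2 genes). The 17 myelin genes drawn lie below 0, while in the neuron list 11 lie above 0 and 5 below it.

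Lipid synthesis was followed in a pair of lists, of cholesterol and of fatty acids. Of 20 tested genes of cholesterol synthesis 16 had a log2 fold change below 0 (median -0.10), 2 were called lower (10% of the list) and 0 higher. MSMO1, which oxidizes methylsterols, was at 184 to 301 CPM in AGA piglets (median 239) and at 136 to 244 CPM in SGA piglets (median 206). It was lower in all 12 SGA littermates (log2 fold change -0.24, SE 0.060, adjusted p = 0.0845), and 6 of the 12 fits without 1 litter called it. INSIG1, which holds back the activation of sterol synthesis, was lower in 11 (log2 fold change -0.24, adjusted p = 0.0753). In the model of the study MSMO1 had -0.07 and INSIG1 -0.10, and the median of the cholesterol list was -0.05. Among 22 genes of fatty acid synthesis and elongation the median was 0.02, and ELOVL7, an elongase of long chain fatty acids, was the 1 called lower. It had medians of 68.4 CPM in AGA and 52.1 CPM in SGA piglets and a log2 fold change of -0.36 (SE 0.072, adjusted p = 0.0378).

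Genes of the cytosolic ribosome had small negative differences through most of their list. Of 79 genes 72 were tested, 70 of them had a log2 fold change below 0, the median was -0.14, and 10 were called lower (13.9%) and 0 higher. RPS19, which is needed for the small subunit, was at 345 to 569 CPM in AGA piglets (median 413) and at 248 to 365 CPM in SGA piglets (median 341). It was lower in 11 of 12 litters (log2 fold change -0.29, SE 0.057, adjusted p = 0.0361). RPS23 of the small subunit (log2 fold change -0.30, adjusted p = 0.0378) and RPLP1 of the stalk (-0.28, adjusted p = 0.0408) were lower in all 12 litters. RPL36A was also lower in all 12, at 28.8 to 50.1 CPM in AGA and 22.4 to 31.7 CPM in SGA piglets (log2 fold change -0.40, SE 0.072, adjusted p = 0.0247).

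Ribosomal protein genes have many near-identical copies, and reads that fit several places were left out by the counting, so each single gene is less certain than the list. The list median was below 0 in 10 of 12 litters, from -0.51 in litter 3 to -0.06 in litter 11, and was 0.09 in litter 5 and 0.12 in litter 8. Most of these genes are short, and the study gives RNA quality only as an average over its samples, so it could not be set beside each pair. Over all genes, short genes (under 1000 exonic bases) were lower than long genes (over 5000 bases) in SGA littermates by a mean of 0.03 on the log2 scale (SD 0.092, two-sided exact sign-flip permutation test, p = 0.32), with a range over litters of -0.23 to 0.10. In litter 3, which had the lowest ribosomal median, the median difference ran from -0.15 in the shortest 10% of genes to 0.14 in the longest 10%. In litter 8, which had the highest, it ran from 0.06 to -0.08. In litters 1, 2 and 10 (ribosomal medians -0.21, -0.18 and -0.20) it ran from -0.05, -0.07 and -0.07 to 0.08, 0.07 and 0.03. In litters 4 and 9 (both -0.18) it ran the other way, from 0.02 to -0.03 and from 0.02 to -0.04. In litter 7 (-0.25) it ran from -0.02 to -0.0007. The part of RNA quality in the ribosomal values was not tested. Without the ribosomal protein genes this mean difference was -0.02 (exact permutation test, p = 0.379). Genes of the mitochondrial ribosome had a median of -0.04 over 64 genes and translation factors -0.04 over 39, with 0 called in both lists.

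Neuronal lists had mostly positive differences, of which few passed the test. Interneuron markers (median 0.10 over 21 genes) and genes of immature neurons (0.08 over 15) had 0 called. Their litter medians were below 0 in 7 and 8 of 12 litters. In the model of the study these 2 medians were -0.02 and 0.04. Among 16 tested genes of pyramidal and granule neurons the median log2 fold change was 0.25, 11 were above 0, 2 were called higher (12.5%) and 0 lower, and the list median was above 0 in 10 of 12 litters. FEZF2, a transcription factor of cortical projection neurons (gene 100518806, chromosome 13 from 47998138 to 48002064), was at 49.2 to 122 CPM in AGA piglets (median 89.7) and at 85.5 to 176 CPM in SGA piglets (median 112). It was higher in 10 of 12 SGA littermates (log2 fold change 0.37, SE 0.080, adjusted p = 0.0492). BHLHE22, a transcription factor of the same class of neurons, was higher in 11 (log2 fold change 0.43, SE 0.076, adjusted p = 0.0247).

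The members of that list differed among themselves. FIBCD1 of CA1 had 0.45 (adjusted p = 0.130), TBR1, a factor of cortical neurons, had 0.28 (adjusted p = 0.401), and SLC17A7, the vesicular glutamate transporter, had 0.24 (adjusted p = 0.289). The 5 members below 0 were C1QL2 (-0.15), C1QL3 (-0.05), NEUROD1 (-0.05), PROX1 (-0.04) and GRIK4 (-0.01), and none of these 8 passed the test. In the model of the study the list median was 0.15. FIBCD1 was at 47.9 CPM in its lowest AGA library and at 107 CPM in its lowest SGA library on plain library totals. Which part of the hippocampus and of the adjoining cortex entered each dissection is not given, and its part in the neuronal values was not tested.

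Among 26 sodium and calcium channel genes 25 had a log2 fold change above 0 (median 0.18, and 0.08 in the model of the study), 2 were called higher (7.69%) and 0 lower. SCN3B, an auxiliary subunit of sodium channels, was at 27.9 to 76.1 CPM in AGA piglets (median 60.9) and at 53.8 to 109 CPM in SGA piglets (median 78.3), and was higher in 10 of 12 SGA littermates (log2 fold change 0.46, SE 0.108, adjusted p = 0.0725). CACNA1G, a low-voltage calcium channel, had medians of 81.5 and 109 CPM (log2 fold change 0.36, SE 0.084, adjusted p = 0.0739).

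Synaptic genes had small, mostly positive values. Of 39 genes of the synaptic vesicle and its release 36 were above 0 (median 0.19), and 1 was called higher (2.56%). In edgeR's test 19 of the 39 had an unadjusted p under 0.05. Over all genes tested 0.986% were called and 12.5% had such a p. The list median was 0.71 in litter 4, 0.66 in litter 7 and 0.48 in litter 12, and between -0.06 and 0.16 in the other 9 litters. Without litters 3, 4 and 12 it was 0.09, and in the model of the study it was 0.06. Of 29 postsynaptic scaffold genes 28 were above 0 (median 0.11), and IQSEC2, an exchange factor of the postsynaptic density, was the 1 called, higher in all 12 litters (log2 fold change 0.23, SE 0.053, adjusted p = 0.0725). Of 23 adenylyl cyclase and PKA genes 20 were above 0 (median 0.17) and 0 were called, although 6 had an unadjusted p under 0.05 in edgeR's test. The medians of 21 glutamate and 14 GABA receptor genes were 0.09 and 0.12, with 0 called. In the model of the study both were -0.02.

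DUSP6, a phosphatase that switches off ERK and is induced by its activity, was higher in every litter. It was at 23.3 to 37.1 CPM in AGA piglets (median 32.5) and at 33.0 to 56.2 CPM in SGA piglets (median 40.5), a log2 fold change of 0.36 (SE 0.071, adjusted p = 0.0361). The difference ranged from 0.05 in litter 9 to 0.81 in litter 12. Among 25 immediate early genes it was the only 1 called, and the list median was 0.15, with EGR1 at 0.30 (adjusted p = 0.252), FOS at 0.36 (adjusted p = 0.408) and JUN at -0.05.

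Regulators of actin, which shape spines, held other called genes. Of 33 genes of actin turnover 3 were called higher and 0 lower (9.09%, against 0.986% of all genes tested). The list median was 0.04. COTL1, which binds actin filaments, was at 40.0 to 57.3 CPM in AGA piglets (median 50.5) and at 54.1 to 94.5 CPM in SGA piglets (median 60.1), a log2 fold change of 0.39 (SE 0.072, adjusted p = 0.0303). WASF1, which starts branched actin, had 0.33 (adjusted p = 0.0614) and PDXP, a phosphatase that acts on cofilin, had 0.48 (adjusted p = 0.0743). Beta-actin (ACTB) had 0.04 and cofilin (CFL1) 0.09, and neither passed. ASAP2, which switches off Arf GTPases (gene 100513350, chromosome 3 from 135296092 to 135436317), was at 63.6 to 101 CPM in AGA piglets (median 78.1) and at 95.2 to 123 CPM in SGA piglets (median 104). The ranges shared only the stretch from 95.2 to 101 CPM, and the log2 fold change was 0.42 (SE 0.071, adjusted p = 0.0201). ACAP2, which also switches off Arf GTPases and was picked after its value was seen, was lower in 11 litters (log2 fold change -0.27, SE 0.055, adjusted p = 0.0404).

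The remaining genes with the smallest p that were higher in SGA littermates had varied roles. LRRC73, a leucine-rich repeat gene, was at 41.4 to 88.5 CPM in AGA piglets (median 76.2) and at 83.2 to 143 CPM in SGA piglets (median 97.5), with a log2 fold change of 0.45 (SE 0.078, adjusted p = 0.0247). BCL9L, a partner of beta-catenin (0.32, adjusted p = 0.0284), AEBP1, a matrix-associated protein (0.36, adjusted p = 0.0408), and AKAP2, an anchor of PKA (0.29, adjusted p = 0.0408), were higher in 10, 11 and 12 litters. MIDN, which brings nuclear proteins to the proteasome (0.23, adjusted p = 0.0361), and MTMR1, a lipid phosphatase (0.26, adjusted p = 0.0418), were higher in all 12. Of 32 splicing regulators 1 was called (3.12%, against 0.986% of all genes tested), LENG8 (0.24, adjusted p = 0.0953).

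Among the lower genes with the smallest p, most had no place in the lists. EVI2A, a membrane protein (-0.39, adjusted p = 0.0178), and TTYH2, an anion channel of the tweety family (-0.31, adjusted p = 0.0279), were lower in 11 litters. GAB1, an adaptor of growth factor receptors, had -0.30 (adjusted p = 0.0361). It was the 1 called of 26 genes of IGF and insulin signalling (3.85%, against 0.986% of all genes tested). That list had a median of 0.08. SH3GL3, an endophilin of endocytosis, was lower in all 12 at medians of 101 and 83.0 CPM (-0.31, SE 0.051, adjusted p = 0.0201). ADA, the deaminase of adenosine, was at 16.0 to 31.8 CPM in AGA piglets (median 26.1) and at 14.3 to 28.9 CPM in SGA piglets (median 16.0), lower in all 12 (-0.42, SE 0.075, adjusted p = 0.0247). SLAIN1, which acts at microtubule ends (-0.36, adjusted p = 0.0251), PPIB, a folding enzyme of the endoplasmic reticulum (-0.30, adjusted p = 0.0277), SMIM15 (-0.31, adjusted p = 0.0326) and C14H10orf90 (-0.33, adjusted p = 0.0247) were also lower in all 12. LGALS1, a galectin that fibroblasts express, had -0.42 (adjusted p = 0.0247) and was the 1 gene called of 20 fibroblast genes, whose median was -0.01.

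Lists of other cells held few or no calls, and their medians varied between litters. The SD of litter medians was 0.19 for astrocyte, 0.197 for endothelial, 0.383 for microglial and 0.438 for fibroblast genes. For the myelin and synaptic vesicle lists it was 0.258 and 0.267. Astrocyte genes had a median of -0.02 over 19 genes, and GFAP, their filament protein, had -0.08 (SE 0.061). Microglial genes had a median of -0.05 over 20 genes, with litter medians from -0.75 in litter 4 to 0.89 in litter 6. Endothelial genes had a median of 0.03 over 19. The choroid plexus list, with 6 genes, ranged from -1.20 in litter 11 to 1.02 in litter 2. Fibroblast genes ranged from -0.62 in litter 7 to 0.82 in litter 3. Ependymal genes had a median of 0.10, with FOXJ1, a regulator of cilia, at 0.39 (SE 0.126, adjusted p = 0.188). In litters 4 and 7, where the synaptic genes had their largest differences, the fibroblast, endothelial and astrocyte medians were all below 0, at -0.44, -0.33 and -0.36 in litter 4 and -0.62, -0.32 and -0.27 in litter 7. In litter 12, where the synaptic vesicle median was 0.48, the fibroblast median was 0.76, the endothelial -0.22 and the astrocyte -0.16. The part of these cells in the synaptic values was not tested.

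**Figure D4:**
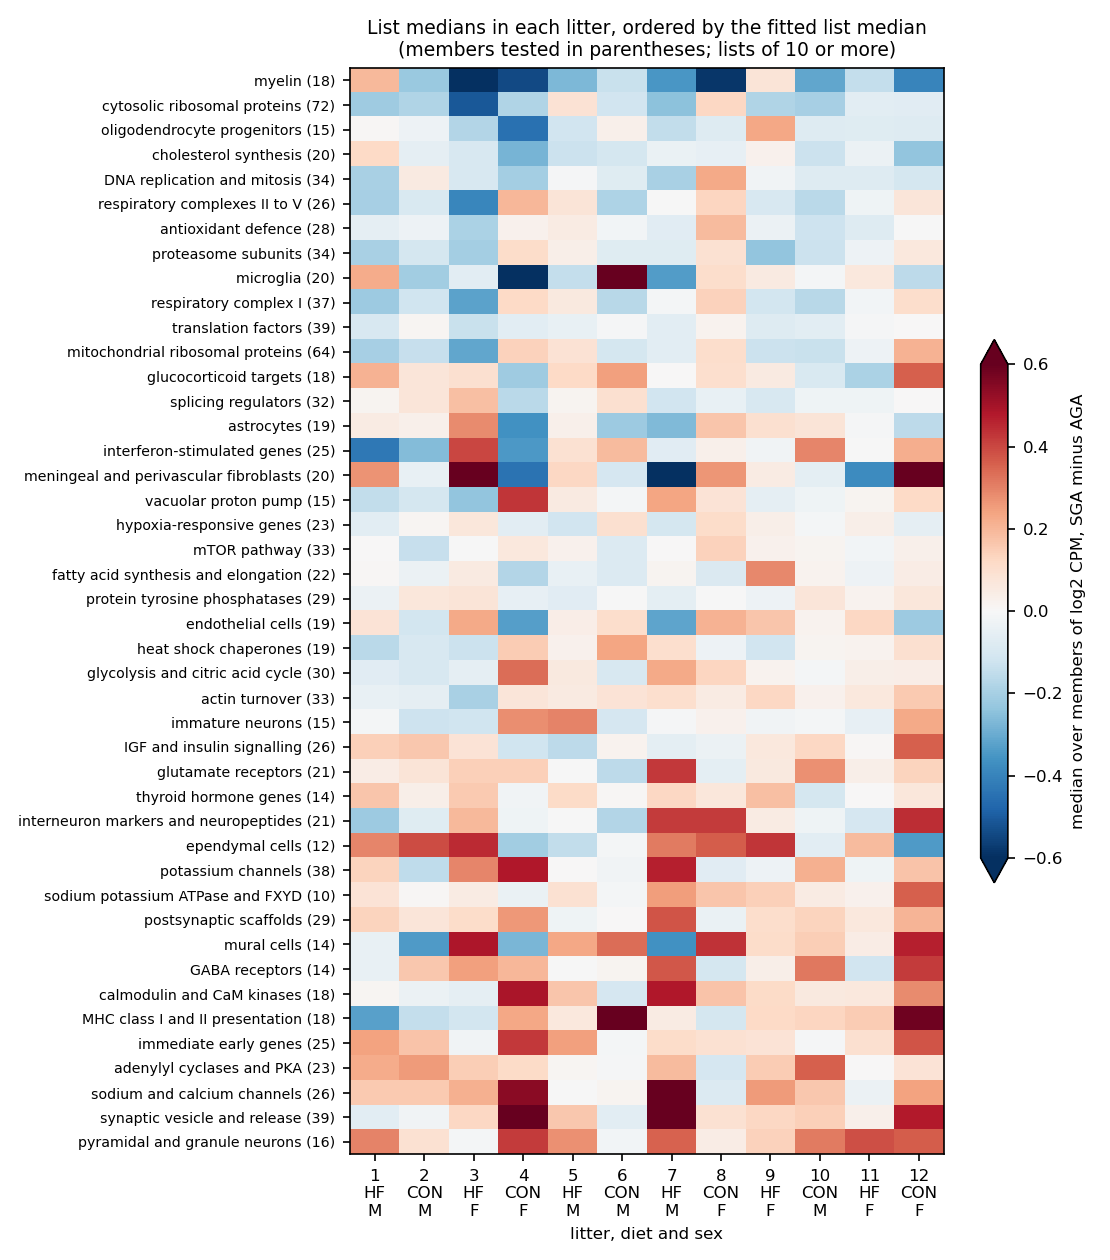
Median over list members of the log2 CPM difference, SGA minus AGA, in each litter (columns, with diet and sex), for lists of 10 or more tested genes in the order of their fitted median (rows). Blue is lower and red higher in SGA, and colors saturate at 0.6. The myelin row is blue in 10 of 12 litters, and the synaptic vesicle row is darkest in litters 4, 7 and 12.

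Lists of metabolism and protein turnover held no called genes. Glycolysis and citric acid cycle genes had a median of 0.04 over 30, respiratory complex I -0.05 over 37 and complexes II to V -0.07 over 26. Proteasome subunits had -0.06 over 34 and hypoxia-responsive genes 0.00 over 23. Each list had 0 called genes at an FDR p under 0.1 in edgeR. In the same order, 4 of 30, 8 of 37, 4 of 26, 7 of 34 and 2 of 23 had an unadjusted p under 0.05 in that test. Over all genes tested the share was 12.5%, and the shares in complex I and the proteasome were above it. Of the members of these lists, 30 of 37 were below 0 in complex I, 20 of 26 in complexes II to V and 25 of 34 in the proteasome. In HF litters alone these 3 medians were -0.11, -0.13 and -0.15, and in CON litters -0.002, -0.003 and 0.03, a difference that was not tested for the lists. CDK4, a cell cycle kinase in none of the lists, was singled out after its value was seen, lower in all 12 litters (-0.22, adjusted p = 0.0628).

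The litters resembled each other only weakly gene by gene. Across all 16326 genes tested, weakly expressed ones included, the differences of a litter were correlated with the mean of the other 11 litters. This r lay between -0.121 in litter 8 and 0.17 in litter 10, a description across genes, which are not independent. Of the 9078 genes of at least 10 CPM, the number over 2-fold apart ran from 50 in litter 10 to 262 in litter 12. In either cohort, either diet or either sex alone, with 6 litters, between 0 and 4 genes were called in any direction. All 161 called genes had the same sign in each of these 6 subsets, which follows in large part from their having been called on the same litters.

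Tests of whether the littermate difference itself differed between litters called few genes. For sex it was 1 gene (0.00613%, with 402 at an unadjusted p under 0.05), for diet 3 genes (0.0184%, with 609), and for cohort 0 genes (591 at an unadjusted p under 0.05), by edgeR's quasi-likelihood test with litter as a block. The DESeq2 Wald test called 0 genes for sex and for cohort, and 4 for diet, of which 2 were among the 3. The median SE of such a difference was 0.208 for sex against 0.103 for the size effect. In simulated data, changes were planted only in genes with a mean of at least 10 CPM. Of these, 1.49% of 1.25-fold differences between the sexes were recovered and 81.8% of 2-fold ones. A difference as small as most of the size effects was thus not detectable here.

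PRKDC, the catalytic subunit of a DNA repair kinase (chromosome 4 from 87185946 to 87343690), moved in opposite directions on the 2 diets. In CON litters AGA piglets were at 8.29 to 20.3 CPM and SGA piglets at 9.46 to 25.0 CPM, and the SGA piglet was higher in 6 of 6. In HF litters AGA piglets were at 10.3 to 22.3 CPM and SGA piglets at 8.53 to 18.3 CPM, and the SGA piglet was lower in 6 of 6. The log2 difference of HF litters minus that of CON litters was -1.20 (SE 0.207, adjusted p = 0.0975). The call was lost without any 1 of 10 litters, all but litters 2 and 12, while the difference kept its sign. Gene 100627087, which has no symbol (chromosome 4 from 110390730 to 110428088), was lower in SGA piglets of 6 of 6 CON litters and higher in 4 of 6 HF litters (difference 0.88, SE 0.143, adjusted p = 0.0764).

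NPSR1, a neuropeptide receptor, and GH1, growth hormone, gave the other calls at counts near the floor. NPSR1 was at 0 to 5.69 CPM in AGA and 0 to 10.2 CPM in SGA piglets. In 4 male litters the AGA piglet held 4 to 42 reads and the SGA piglet 0 to 2, and in 2 female litters the SGA piglet held 36 and 67 reads and the AGA piglet 1 and 0. The other 6 litters had at most 3 reads in either piglet, which is at or below the floor and gives no direction (adjusted p = 0.0201 for sex). The call was lost without litter 3, 7 or 8. GH1 exceeded the other 23 libraries by far in the SGA HF piglet of litter 7, with 2574 reads against at most 39 elsewhere, and its diet call (adjusted p = 0.0764) was lost without litter 2, 3, 6, 7 or 9. Fitted fold changes of both genes depend on the prior count and give no bound. For MIEN1, which with GH1 had the smallest p for cohort, the difference was 0.51 (adjusted p = 0.999).

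**Figure D5:**
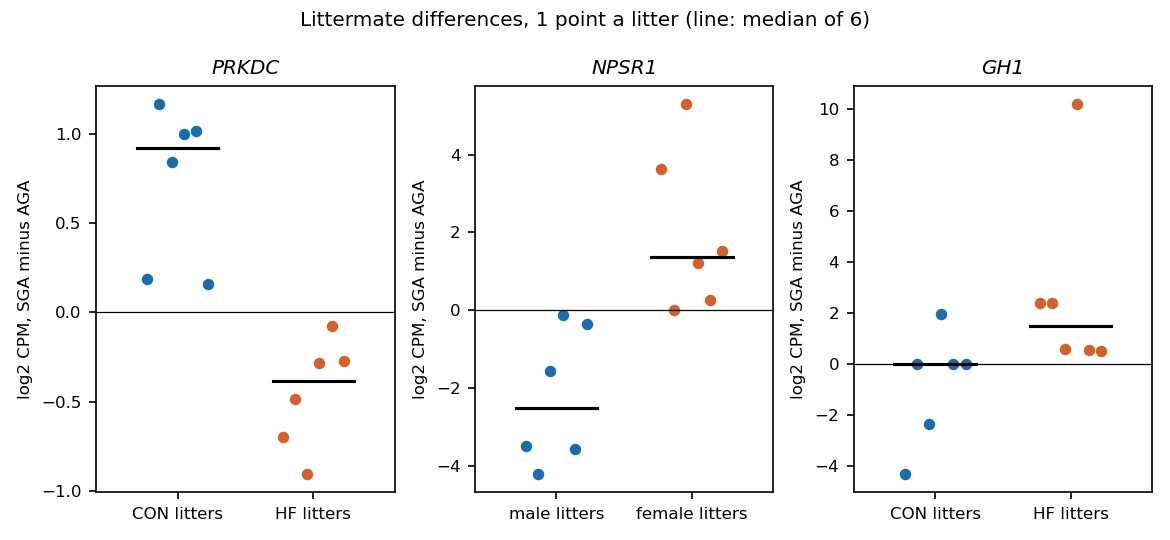
Log2 CPM difference of SGA minus AGA (vertical axes, prior count of 2) in each litter, 1 point a litter and a line for the median of 6, for PRKDC and GH1 by diet and NPSR1 by sex. The PRKDC points of CON litters lie between 0.16 and 1.16 and those of HF litters between -0.90 and -0.07, and the single GH1 point at 10.2 is litter 7.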

How the data were processed

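Hippocampal RNA of 24 piglets was sequenced as single-end reads from a stranded library. Per the labels and the methods of the study, the authors trimmed reads with Trimmomatic 0.33, aligned them to Sscrofa10.2 with STAR 2.5.2a and deposited whole-number counts per gene on exons from featureCounts (Subread 1.5.0), with strand used and with neither filter nor normalization. Of 38882 listed genes 15993 had a symbol in a Sscrofa11.1 name table. An entry without identifier was left out (0.613 to 1.62% of reads). The mitochondrially encoded protein genes were not among the genes tested.

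Counts were scaled by TMM, and genes that reached 1 CPM in 3 or more libraries were fitted in edgeR 4.0.16 (R 4.3.3) by the quasi-likelihood method on litter and size. FDR p values (Benjamini-Hochberg) cover this contrast alone, with a threshold of 0.1. Litter pairs the samples by the labels, and littermates' deviations from their group means correlated at 0.0144 to 0.329 across genes. CPM in the text is TMM-scaled, and the SE is the size of the log2 fold change over the square root of F. Differences per litter used a prior count of 2. The interactions of size with sex, cohort and diet were fitted with the litter block. Counts of 16326 genes were simulated, with changes planted only in genes with a mean of at least 10 CPM (66 or 67 genes a fold). For the size comparison, 62.7% of 1.25-fold, 97% of 1.5-fold and 100% of 2-fold changes were recovered, and 10.4% of calls were unchanged genes. Recovery in weaker genes was not simulated. For size by sex these were 1.49, 50.7 and 81.8%.

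Named genes were the 12 higher and 12 lower genes with a symbol and the smallest p, up to 3 called genes of each list, and up to 3 in each direction for an interaction, or the 2 with the smallest p where none passed. Other list members are given as values. A few genes are not reported here. Genes and lists were chosen with earlier results of these data known, lists are described and not tested, and p values measure the spread between litters. Alternatives used DESeq2 1.42.0, limma 3.58.1 and sva 3.50.0. Brain imaging, fatty acid, maze and weight data were not analysed here.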

Additional observations from a re-analysis of the deposited data

Results flagged for a closer look

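Within each group of 6 libraries, a value was set apart when its gap to the nearest other library, as a share of the range of the group, exceeded the 95% critical value of Dixon. Of 188 groups looked at, 22 held such a library, and chance gives about 1 in 20. In AGA CON piglets, the library of litter 4 was the lowest for LRRC73 (41.4 CPM), SCN3B (32.5 CPM) and IQSEC2 (271 CPM). That library was the highest for RPS23 (157 CPM) and for the share of reads on the entry without identifier (1.62%). In SGA CON piglets, the library of litter 12 was the highest for MIDN (223 CPM), AKAP2 (181 CPM) and NKX6-2 (31.6 CPM).

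Other libraries stood apart for 1 or 2 genes. In SGA CON, CNP was highest in litter 10 (2434 CPM) and PRKDC lowest in litter 2 (9.46 CPM). In AGA HF, BCL9L was lowest in litter 3 (90.0 CPM), and SH3GL3 (132 CPM) and MTMR1 (97.0 CPM) were highest in litter 9. COTL1 was highest in the SGA HF piglet of litter 9 (77.8 CPM), and MBP (8944 CPM) and PRKDC (20.3 CPM) in the AGA CON piglet of litter 12. GH1 was set apart in litter 2 of AGA CON (5.05 CPM), litter 8 of SGA CON (0.758 CPM) and litter 7 of SGA HF (306 CPM), and NPSR1 in litter 2 of AGA CON (4.66 CPM), litter 8 of SGA CON (10.2 CPM) and litter 3 of SGA HF (5.00 CPM).

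The littermate difference itself differed between groups for 4 genes by the test of the interaction. The fitted log2 difference was 9.05 between female and male litters for NPSR1. Between HF and CON litters it was 11.89 for GH1, -1.20 for PRKDC and 0.88 for gene 100627087.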

How the results depend on the processing

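The number of calls depended strongly on the processing. The counts of higher and lower genes were 55 and 106. They became 18 and 41 at an FDR p under 0.05, 1004 and 1032 at an FDR p under 0.4, 288 and 253 in DESeq2, and 270 and 180 with no filter on low counts. Without the litter block they were 27 and 59 with size, diet, sex and cohort as terms, and 33 and 13 in the model of the study with 5 surrogate variables. That model was refitted here in edgeR, with the FDR over this contrast alone. The study used limma voom and adjusted over all its contrasts together, so these are not its own counts. Leaving out each litter gave 13 to 82 higher and 37 to 114 lower genes. The counts moved by more than 1.5 times without litter 3, 4, 7, 10, 11 or 12, and for higher genes also without litter 9 (27).

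With 6 litters the counts were 0 and 0 in cohort 1, 1 and 0 in cohort 2, 0 and 4 on CON, 2 and 1 on HF, 0 and 0 in males, and 0 and 1 in females. These fits have fewer litters, and the smaller sample lowers what can be called. Without litters 3, 4 and 12, an alternative added after the data were seen, 1 and 2 were left.

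For size by sex, 1 gene became 0 in DESeq2 and when 1 CPM had to be reached in 12 libraries, 2 at an FDR p under 0.4 and with all 3 interactions in one model, and 33 with no filter on low counts. For cohort, 0 became 11 with no filter. For diet, 3 became 0 at an FDR p under 0.05, under the stricter filter, without the litter block and with all 3 interactions in one model. The diet count became 4 in DESeq2 and 87 with no filter. Leaving out each litter gave 0 to 2 genes for sex and 0 to 5 for diet. The depth difference of 0.112 ranged from 0.0745 to 0.134, and its p passed 0.05 without litter 2, 4, 8 or 12. The cause of these shifts was not tested. Over all alternatives, single genes gave 1144 values, of which 678 kept their side of the threshold, 466 lost the call and 0 changed sign, and of 87 values of interactions 0 did. The medians of gene lists have no test, and 119 of 1280 changed sign, among them that of DNA replication and mitosis genes, from -0.09 to 0.03 in the model of the study. The medians of the myelin, cytosolic ribosomal, pyramidal and granule neuron, synaptic vesicle and sodium and calcium channel lists kept their sign in every alternative run. In the model of the study these 5 were smaller in size, at -0.18, -0.11, 0.15, 0.06 and 0.08, and 32 of 44 named genes lost the call. Including the list members whose symbol several entries share, added after the data were seen, gave a myelin median of -0.31. Genes under 5 CPM are limited by depth.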

Other observations

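Of the 161 called genes 124 were in none of the gene lists. The gene with the smallest p of all has no symbol (gene_100517438). It was at 5.76 to 10.4 CPM in AGA piglets (mean 7.76, SD 1.31, n = 12) and at 8.59 to 16.5 CPM in SGA piglets (mean 12.1, SD 2.46, n = 12). The SGA piglet was the higher one in all 12 litters, with a log2 fold change of 0.63 (SE 0.085, adjusted p = 0.00935), and the gene was called in all 12 fits without 1 litter.

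A pair of transport genes outside the lists was picked after their values were seen. APOM, a lipocalin of lipoproteins, was at 0.929 to 3.24 CPM in AGA piglets (median 2.46) and at 0.493 to 2.42 CPM in SGA piglets (median 1.38), lower in all 12 litters with a log2 fold change of -0.78 (adjusted p = 0.0983), and called in 1 of the 12 fits without 1 litter. SLC8A2, a sodium and calcium exchanger of neurons, was at 453 to 813 CPM in AGA piglets (median 725) and at 696 to 944 CPM in SGA piglets (median 831), higher in all 12 (log2 fold change 0.23, adjusted p = 0.0999), and called in 2 of these fits.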
